A study of Danio rerio with 18 samples.

Results

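The regions described here are 3440 N6-methyladenosine (m6A) peaks of zebrafish trunk RNA at 28 hours post fertilization (hpf) at which 3 kinds of library coincide. Each is a peak of the first control m6A list that overlapped a peak of the second control list by at least 1 bp, held at least 1 miCLIP site at the same position and strand in both miCLIP lists, and overlapped a Ythdf2 region found in both Ythdf2 lists. They made up 10.7% (95% interval 10.37% to 11.05%) of the 32131 peaks of the first control list and 16.7% of the 20625 of them that overlapped the second. They were chosen by the measured positions in the lists of 6 control or injected samples, 2 per assay, and by no value of fold. The 2 m6A lists of mettl3 morphants were not used in this choice. Presence in those lists was therefore no criterion, although the rule favours long peaks and peaks found in a second list, and length moved with presence (given below by quartile).

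m6A is the most common internal base modification of messenger RNA. It is written by a methyltransferase complex whose catalytic subunit is Mettl3, mostly within short sequence motifs and often near stop codons and in 3′ untranslated regions. Ythdf2 is a reader protein that binds methylated transcripts in the cytoplasm and recruits a deadenylase complex, which promotes their decay. In the zebrafish embryo, m6A and Ythdf2 are known for their part in clearing maternal transcripts, and Mettl3 for its part in the emergence of blood stem cells from the endothelium of the trunk.

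The whole series holds 18 samples in 9 groups of 2. Control embryos are labelled normal, and mettl3 morphants are embryos given an antisense morpholino oligonucleotide against mettl3. m6A peaks came from MeRIP-seq, in which fragmented mRNA is pulled down with an antibody against m6A (Synaptic Systems), and each list of peaks belongs to 1 replicate. miCLIP, from control embryos with an antibody from Abcam, marks single nucleotides crosslinked to the antibody. Ythdf2 regions came from RIP-seq, for which embryos had been given ythdf2-Flag mRNA by injection, so they describe a tagged protein made from injected RNA and not the embryo's own Ythdf2. Labels give trunk tissue and 28 hpf for all of these groups, and do not say whether the replicates came from separate clutches.

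MeRIP libraries held 32800475 to 78278767 reads assigned to genes and the Ythdf2 RIP libraries 7901401 and 5273087. Reads in no gene made up 50.4% and 49.7% in the RIP libraries and 11.7% to 16.5% in the MeRIP libraries. Replicate 1 of the MeRIP libraries was read at 151 bp and replicate 2 at 101 bp. The transcript targeted by the morpholino stood at 35.8 and 19.6 CPM (counts of the gene per 1000000 gene counts of the library) in the control inputs and at 15.7 and 48.2 in the inputs labelled mettl3 morphant. The first morphant input lay below both controls and the second above both, so the level of the targeted transcript does not separate the labels. The labels do not name the kind of morpholino, and morphant below means the label. The lists differed in length, with 32131 and 23819 control peaks and 27289 and 14878 morphant peaks. Presence in the second morphant list was therefore possible for fewer peaks.

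Within the shared control peaks the marks went together. Of the 5113 peaks with a shared miCLIP site, 67.3% (66.0% to 68.6%) also overlapped a shared Ythdf2 region, against 39.9% (6197 of 15512) of the peaks without one. The other 3 classes of shared control peaks were 1673 peaks with a site and no Ythdf2 region, 6197 with a Ythdf2 region and no site, and 9315 with neither. These counts describe the choice of the peaks and carry no test. Intervals of shares are exact binomial 95% intervals over peaks or sites, and those of medians are order-statistic 95% intervals. They cover counting error only, since peaks of 1 list share a library, and no test between labels was run over the 2 lists of each.

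The peaks with both marks were long but not strongly enriched. Their median length was 470.5 bp (457 to 481), with the middle 50% between 321 and 669 bp and extremes of 200 and 3109 bp. Peaks with a site alone had a median of 356 bp, those with a Ythdf2 region alone 325 bp, and those with neither 273 bp. A longer peak has more room to overlap any other feature, so length is in part set by the rule.

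The authors' fold enrichment of the 3440 peaks had a median of 5.04 (4.93 to 5.14) in the first control list, with a range from 1.16 to 159. It is a value of the authors' peak caller, and folds of separate lists are not on a common scale, so they are compared here between classes of 1 list and not between lists. In that list the peaks with neither mark had the higher median, 5.61 (5.56 to 5.70), and those with a site alone 5.30 (5.15 to 5.47). In the second control list the medians were 5.47 with both marks, 5.44 with a site alone, 5.05 with a Ythdf2 region alone and 5.71 with neither. Among peaks found again in the first morphant list the medians were 4.45 with both marks, 4.48 with a site alone, 4.40 with a Ythdf2 region alone and 4.75 with neither. In the second morphant list they were 6.03, 5.91, 5.96 and 6.65 in the same order of classes. In each of the 4 lists the class with neither mark had the highest median.

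Most of these peaks were present in both lists labelled mettl3 morphant. Of the 3440, 2998 (87.2%, interval 86.0% to 88.3%) were there in both, against a background of 56.4% over all shared control peaks. A further 400 (11.6%, background 32.5%) were in exactly 1 morphant list, 253 of them in the first and 147 in the second. The remaining 42 (1.22%, 0.881% to 1.65%, background 11%) were in neither. Taken list by list, 94.5% (background 81.5%) were in the first morphant list and 91.4% (background 63.9%) in the second.

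The other classes of shared control peaks were found again in smaller shares. Both morphant lists held 69.1% (66.8% to 71.3%) of the peaks with a site alone, 62.2% (61.0% to 63.4%) of those with a Ythdf2 region alone and 39.0% (38.0% to 40.0%) of those with neither. In the same order, 4.36%, 7.60% and 18.1% were absent from both lists. None of these intervals overlaps that of the doubly marked peaks. They cover counting error over peaks of the same lists, and the difference between classes was not tested. The gap between classes was wider in the second, shorter morphant list. It held 91.4% of the peaks with both marks and 47.6% of those with neither, where the first held 94.5% and 73.3%.

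**Figure D1:**
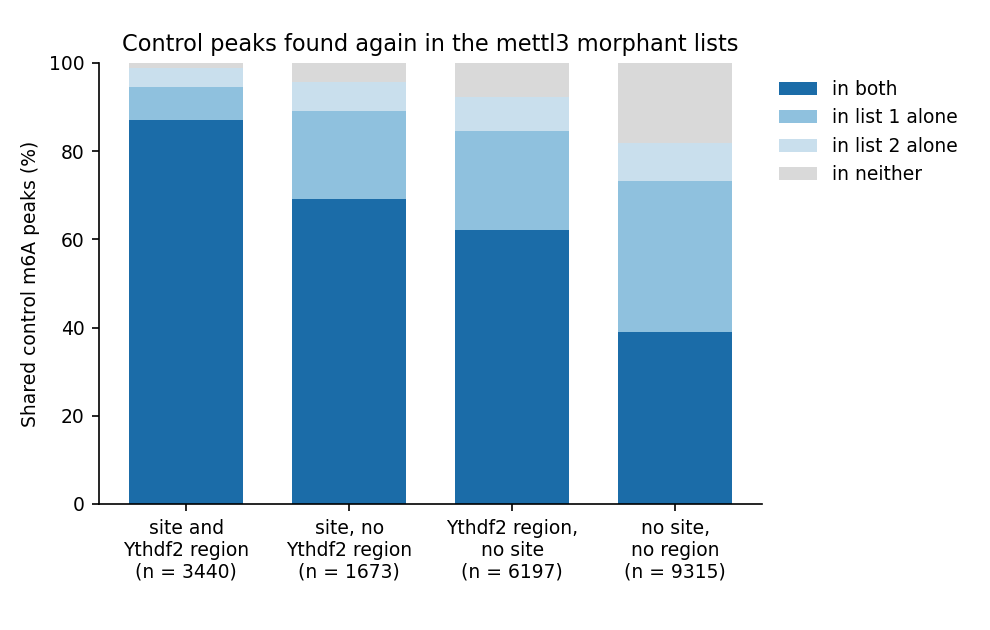
Share of shared control m6A peaks (y axis, %) found in both, 1 or neither of the lists labelled mettl3 morphant, for the 4 classes of peak (x axis, number of peaks in brackets). The dark segment falls from 87.2% for peaks with a site and a Ythdf2 region to 39.0% for peaks with neither.

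How the morphant lists compare with a second control list was read from the peaks of the first control list with no condition on the second. There, 3765 peaks held a shared site and overlapped a shared Ythdf2 region. The second control list held 91.4% (90.4% to 92.2%) of them, the first morphant list 92.2% (91.3% to 93.0%) and the second 84.8% (83.6% to 85.9%). When the other lists were cut to their 14878 peaks of highest fold, the full length of the second morphant list, 1667 such peaks were left. The second morphant list thus kept its peaks of low fold while the other 3 lost theirs. The second control list then held 85.5% (83.7% to 87.1%), the first morphant list 79.6% (77.6% to 81.5%) and the second 92.3% (90.9% to 93.6%). The morphant lists thus lay on either side of the control list in both readings, and which of them was higher changed when the lists were cut.

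In the uncut lists the other classes had the same order, with the second control list between the 2 morphant lists. The shares in the second control list and the first and second morphant lists were 84.0%, 85.5% and 64.2% with a site alone. With a Ythdf2 region alone they were 69.4%, 77.3% and 50.6%, and with neither mark 53.4%, 61.3% and 26.5%. Peaks with neither mark followed another order in the cut lists. The second control list held 51.9% of them, the first morphant list 50.2% and the second 33.5%. For peaks with a site alone the shares were 79.9%, 71.4% and 76.2%. Read from the first control list, the doubly marked peaks were the only 1 of the 4 classes with this order: the uncut second morphant list above the cut second control list. This did not hold when read from the second control list (below).

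Starting from the second control list, 3578 peaks held a shared site and overlapped a shared Ythdf2 region. The first control list held 95.9% (95.2% to 96.5%) of them, the first morphant list 92.1% (91.2% to 93.0%) and the second 90.5% (89.5% to 91.4%). Here both morphant lists stood below the other control list, which is the longest of the 4. The other classes had this order too, with 93.1%, 84.8% and 73.2% for a site alone. For a Ythdf2 region alone the shares were 88.8%, 78.2% and 65.3%, and for neither mark 83.4%, 65.2% and 41.1%. In the cut lists 2259 doubly marked peaks of the second control list were left. Their shares were 62.4% (60.3% to 64.4%), 66.8% (64.8% to 68.7%) and 96.3% (95.4% to 97.0%). The second morphant list also stood above the cut first control list for peaks with a site alone, at 83.5% against 65.1%. The same held with a Ythdf2 region alone, at 73.3% against 61.1%. For peaks with neither mark it stood below, at 45.4% against 59.7%. Both second replicates were read at 101 bp and both first ones at 151 bp, and the part of read length in these shares was not tested.

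The extent of the peaks was also read with no condition on the second control list. Of the 1973711 bp in the 3765 peaks of the first control list with both marks, 84.9% were covered by peaks of the second control list, 86.6% by the first morphant list and 72.4% by the second. For the 17447 peaks with neither mark the values were 50.1%, 58.4% and 23.8%. Within the 3440 peaks, where overlap with the second control list is set by the rule, the morphant lists covered 87.7% and 75.5% of 1879914 bp. Where such a peak was found, the median share of its length that was covered was 96.4% in the first morphant list and 89.5% in the second. In 5.66% and 6.26% of the cases it was split over 2 or more peaks. With a site alone, a Ythdf2 region alone and neither, the medians were 93.6%, 95.8% and 94.0% in the first list. In the second they were 83.5%, 86.7% and 84.6%. The split shares of these classes were 3.15%, 2.50% and 1.70% in the first list and 2.77%, 1.82% and 1.04% in the second.

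Read in the other direction, 3002 peaks shared by both morphant lists held a shared site and overlapped a shared Ythdf2 region. Both control lists held 97.2% (96.5% to 97.7%) of these, and neither held 0.466%. The shares in both control lists were 97.5% for morphant peaks with a site alone, 94.5% with a Ythdf2 region alone and 94.1% with neither. Sites and Ythdf2 regions were read in embryos not labelled as morphant, so this direction can say nothing of sites that exist in morphants alone.

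Length moved with recovery in every class. Shared control peaks were divided at the quartiles of their length, 200 to 243, 244 to 316, 317 to 463 and 464 to 4015 bp. From the shortest to the longest quartile, 53.3%, 74.4%, 90.2% and 94.9% of the doubly marked peaks were in both morphant lists. For peaks with neither mark the shares were 22.0%, 39.5%, 52.2% and 58.6%. Peaks with a site alone gave 33.2%, 61.5%, 80.3% and 82.6%, and those with a Ythdf2 region alone 37.7%, 56.1%, 71.6% and 80.4%. Within each quartile the share of the doubly marked peaks lay above those of the other 3 classes, a difference that was not tested. Of the 42 peaks absent from both morphant lists, 21 were in the shortest quartile and 15 in the next. The third held 6 and the longest 0 of 1754, which allows a share of up to 0.210%. From the shortest quartile to the longest, 7.72%, 2.71%, 0.698% and 0% of the doubly marked peaks were absent from both. Over all shared control peaks these shares were 25.6%, 11.2%, 5.05% and 2.16%, so absence fell with length there too.

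Fold moved less evenly with recovery. At quartiles of the fold in the first control list, 76.9%, 90.4%, 93.2% and 89.8% of the doubly marked peaks were in both morphant lists, from the lowest fold to the highest. The lowest quartile stood apart, and the highest was not the best recovered. Taken list by list, the shares were 91.4%, 96.3%, 97.1% and 93.3% in the first morphant list. In the second they were 83.3%, 92.9%, 95.4% and 95.9%, so there the highest quartile was the best recovered. Peaks with a site alone were in both lists at 56.0%, 70.3%, 73.4% and 76.8%. In each fold quartile the share of the doubly marked peaks in both lists was again above those of the other classes. This difference was not tested.

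**Figure D2:**
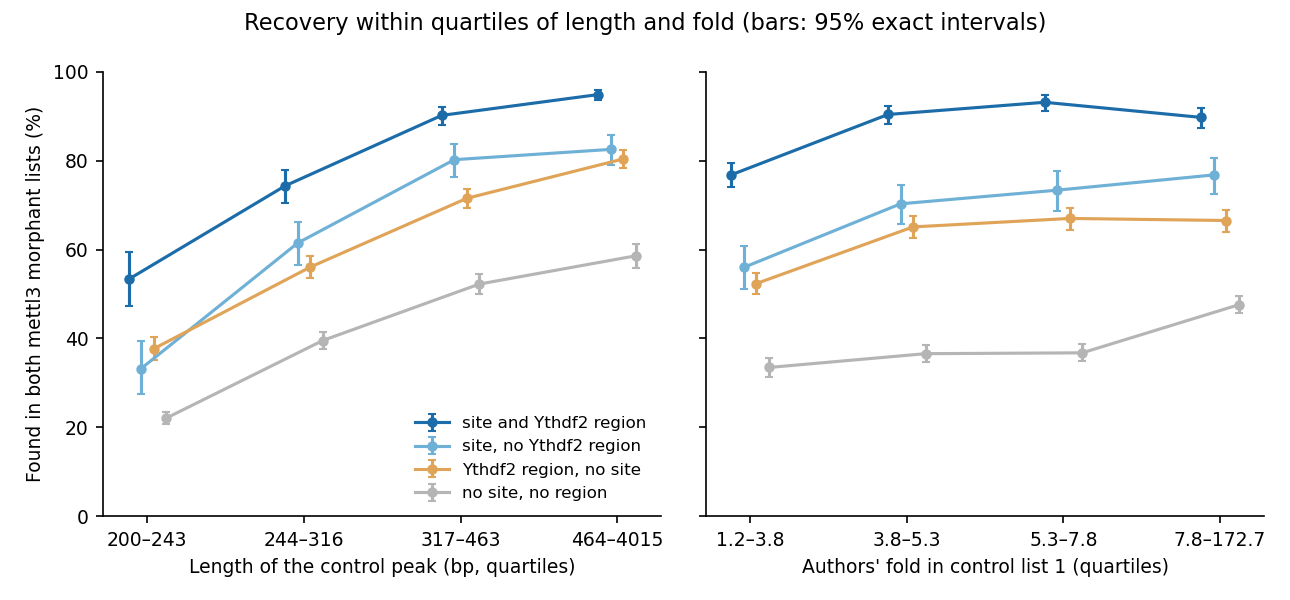
Share of shared control peaks in both mettl3 morphant lists (y axis, %) by quartile of peak length in bp (left) and of the authors' fold (right), for the 4 classes, with 95% exact intervals. The peaks with a site and a Ythdf2 region lie above the other classes in each quartile, from 53.3% in the shortest to 94.9% in the longest peaks.

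The peaks missing from 1 or both morphant lists had lower median lengths than those found in both, and most held 1 site. The 42 absent from both had a median length of 246.5 bp (200 to 438 bp), a median fold of 3.66 in the first control list, and 1 site in 30 of 42 cases (71.4%). The 253 found in the first morphant list alone had a median of 346 bp, above the 316 bp of all shared control peaks. The 147 found in the second alone had a median of 253 bp. A single site was held by 69.2% and 66.0% of them. The 2998 found in both had a median of 499 bp and a median fold of 5.18, and 43.8% of them held 1 site.

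The doubly marked peaks held 8728 shared miCLIP sites, from 1 to 35 in a peak. A single site was present in 1615 (46.9%), 2 sites in 730, 3 or 4 in 672 and 5 or more in 423 (12.3%). At least 2 sites were held by 53.1% (51.4% to 54.7%), against 36.8% (34.5% to 39.2%) of the peaks with a site and no Ythdf2 region. Per length the medians were close, at 0.375 and 0.366 sites per 100 bp, while the upper quartiles were 0.644 and 0.5. Longer peaks held more sites, from a median of 405 bp with 1 site to 691 bp with 5 or more, while the median fold went from 4.85 to 5.28.

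Recovery was higher in peaks with more sites. Both morphant lists held 81.3% (79.3% to 83.2%) of the doubly marked peaks with 1 site, 88.9% of those with 2, 93.5% of those with 3 or 4 and 96.5% (94.2% to 98.0%) of those with 5 or more. For peaks with sites and no Ythdf2 region the shares were 63.7%, 76.5%, 79.4% and 85.3% (74.6% to 92.7%). At equal numbers of sites the doubly marked peaks had the higher share in each of the 4 groups, a difference that was not tested. Peaks with more sites were also longer. At equal numbers of sites the doubly marked peaks were longer too, with medians of 405, 458.5, 511.5 and 691 bp. Without a Ythdf2 region the medians were 325, 388, 431 and 646.5 bp. The part of length in these shares was not tested.

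**Figure D3:**
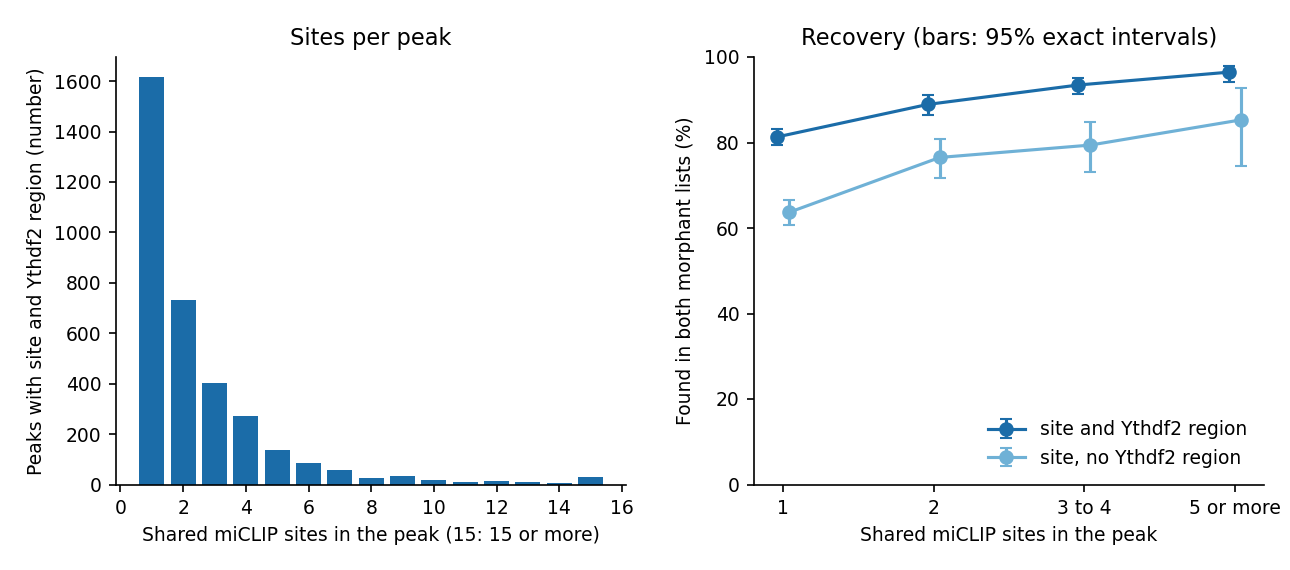
Number of peaks with a site and a Ythdf2 region by shared miCLIP sites in the peak (left), and share found in both mettl3 morphant lists by number of sites (right, %, 95% exact intervals) for peaks with and without a Ythdf2 region. Peaks with 1 site are the most common (1615), and recovery goes from 81.3% at 1 site to 96.5% at 5 or more.

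Counted per site, 80.1% (79.3% to 81.0%) of the 8728 sites lay inside a peak of both morphant lists and 3.41% inside a peak of neither. For the 3035 sites of peaks without a Ythdf2 region the shares were 59.8% (58.0% to 61.5%) and 7.91%. The share of sites was thus below that of peaks, as a morphant peak can overlap a control peak and leave some of its sites outside. The first and second miCLIP lists had 13868 and 13514 sites in the doubly marked peaks, of which 62.9% and 64.6% were in the other list as well. In peaks with a site alone these shares were 61.0% and 63.2%, and over all sites of each list 43.5% and 46.8%. Every peak of both classes holds a site of both lists by choice, so the shares within peaks are set in part by the choice.

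Sites were spaced closely and on 1 strand. All sites of a peak were on the same strand in 3439 of the 3440 peaks. Of these peaks 1615 held 1 site, so only the 1825 with at least 2 could have had both strands. On the plus strand were the sites of 49.2% of the peaks. Neighbouring sites within a peak were a median of 45 nt apart, with the middle 50% between 19 and 98 nt. Of the 5287 such gaps, 75.7% were at most 100 nt and 11.97% at most 10 nt, and the smallest was 4 nt. Peaks without a Ythdf2 region had nearly the same spacing, with a median of 42 nt and shares of 78.2% and 13.1%. Gaps within a peak cannot exceed its length. Over gaps between all neighbouring shared sites of a strand, which no peak bounds, the shares were 38.9% and 6.10%. No pair on the same strand among all 21695 shared sites lay closer than 4 nt either. This lower bound thus belongs to the shared sites as a whole.

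Along the peak the sites leaned towards the 3′ side. Relative to the direction of the site's strand, 65.1% (64.0% to 66.1%) of the sites lay 3′ of the centre of the peak, and the median site was 51.5 nt past it (middle 50% from −44.6 to 147 nt). With each peak divided in 3 equal parts, the first held 16.2% of the sites, the middle 41.3% and the last 42.6%. Peaks with no Ythdf2 region showed the lean too, with 67.4% of sites past the centre and a median of 47 nt. The lean was thus present in peaks with and without a Ythdf2 region.

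**Figure D4:**
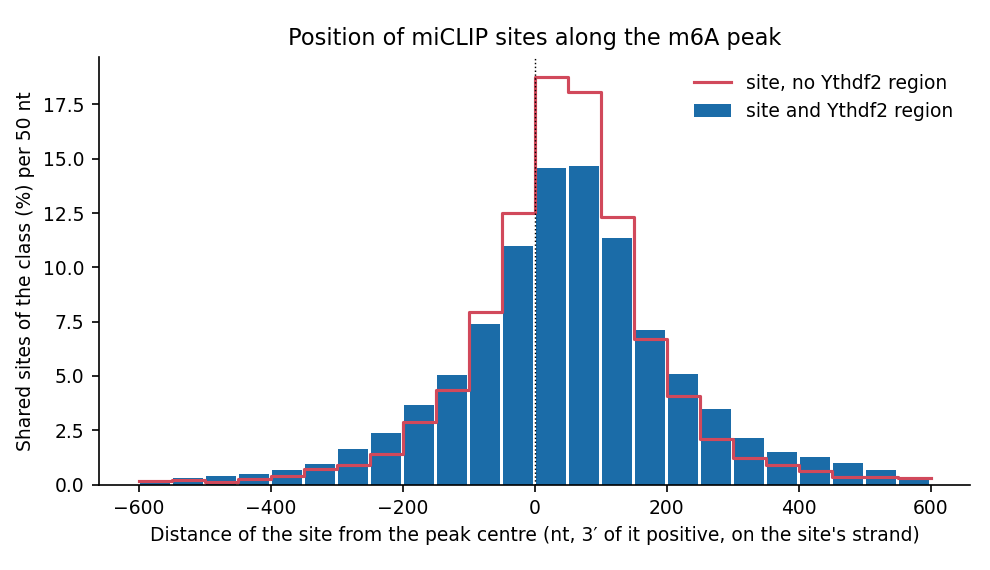
Distance of shared miCLIP sites from the centre of their m6A peak (x axis, nt, positive towards 3′ on the site's strand; sites beyond 600 nt not drawn) as a share of all sites of the class (y axis, % per 50 nt), for peaks with (bars) and without (line) a Ythdf2 region. Both distributions are shifted to the 3′ side, with medians of 51.5 and 47 nt.

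The Ythdf2 regions at these peaks were long. The 3496 regions that touched them had a median length of 562 bp, against 403 bp for regions at peaks without a site. Over all 29455 shared regions, out of 55886 in the first Ythdf2 list, it was 359 bp. A longer region has more room to overlap a peak, so this length too is in part set by the rule. A single region was found at 3267 of the peaks and 2 or more at 173. The regions covered 77.3% of the peaks' total length, a median of 88.0% per peak, and all of the peak in 1066 cases (31.0%).

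Sites fell inside the Ythdf2 region more often than the bases of the peak did. The regions held 7795 of the 8728 sites (89.3%, 88.6% to 90.0%). Among the peaks that were not fully covered, 84.0% of the sites were in the region against 69.6% of the bases. The part that the position of sites within the peak has in this difference was not tested. In 91.2% (90.2% to 92.1%) of the peaks at least 1 site was within the region. The other peaks met the rule with a region that touched the peak beside its sites.

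Few peaks met the overlaps of the rule by a narrow margin in bp, but 1615 (46.9%) held the minimum of 1 shared site. Of the 3440, only 8 had under 20 bp inside a Ythdf2 region, the fewest being 6 bp. A region was missed by 20 bp or less at 6 peaks with a site. In 142 peaks all sites lay within 20 nt of an edge, and 118 peaks with a region had a shared site no more than 20 nt outside. None of the 3440 overlapped the second control list by under 20 bp. Of the 325 peaks of the first list with a site and a region that the second list lacked, 0 had a second-list peak within 20 bp.

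Most doubly marked peaks had no other of their class within 5000 bp. Their share with such a neighbour within 1000 bp was above that of peaks with a site alone and near those of the other classes. The median gap from a doubly marked peak to the next was 35745 bp, with the middle 50% between 5905 and 167304 bp. The minimum was 109 bp. Within 500, 1000 and 5000 bp of another were 8.28%, 11.7% (10.6% to 12.8%) and 23.4%. A neighbour of their own class within 1000 bp was present at 6.22% (5.11% to 7.48%) of peaks with a site alone. The shares were 10.2% (9.41% to 10.9%) with a Ythdf2 region alone and 10.8% (10.2% to 11.4%) with neither. The intervals of these last 2 classes overlap that of the doubly marked peaks. All classes differ in size, with 1673 peaks with a site alone and 3440 with both marks, and the part of size was not tested. Any shared control peak lay within 1000 bp of 25.8% of the doubly marked peaks, 24.4%, 21.5% and 17.8% of the other classes.

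Chains of peaks with gaps of at most 1000 bp numbered 194, of which 180 held 2 peaks, 14 held 3 and 0 held more. In all 194 the sites of every peak were on a single strand, and in 109 a single Ythdf2 region overlapped every peak of the chain. Of the 3440 peaks, 245 shared a Ythdf2 region with another and 37 shared a peak of the second control list, so these are not independent of each other. Peaks in chains were in both morphant lists at 87.1% (83.4% to 90.2%), the others at 87.2%.

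Over the 25 nuclear chromosomes the doubly marked peaks were 14.4% (11.6% to 17.7%) of the shared control peaks on chromosome 25 at the least and 20.9% (18.3% to 23.7%) on chromosome 6 at the most. Presence in both morphant lists ran from 79.8% (95 of 119) on chromosome 11 to 93.0% (107 of 115) on chromosome 18. These are the extremes of 25 chromosomes, and recovery of all shared control peaks on each was not examined. The mitochondrial genome had 1 doubly marked peak of 3 shared ones, and unplaced contigs had 0 of 329. Whether the miCLIP lists reach the unplaced contigs was not examined, so no upper bound is read from this.

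The richest peak, chr7:45703092-45705294, was 2202 bp long and held 35 shared sites on the plus strand, spread over 1862 nt. Coordinates are given as the lists have them, on the contig names of the Zv9 assembly. Genes at the peaks and their sequence were not analysed here. The fold of this peak was 3.78 and 7.43 in the control lists and 4.37 and 6.57 in the morphant lists. A single Ythdf2 region covered 99.2% of it.

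The next by number of sites were chr14:18534544-18536616 with 33 sites, chr7:59462510-59464655 with 31, chr15:28437499-28439567 with 29 and chr2:37916734-37919544 with 28. All 5 were between 2068 and 2810 bp long and in both morphant lists. Their folds in the first control list, from 2.41 to 7.46, lay in the ordinary range of the list. The second of them differed in its Ythdf2 region, which covered 12.1% of its length, while the other 4 were covered to between 60.1% and 99.2%.

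The 5 peaks of highest control fold were between 349 and 422 bp long, below the median of 470.5 bp of the doubly marked peaks and above that of 316 bp over all shared control peaks. At chr8:4708207-4708592, 385 bp long with 3 sites within 40 nt, the fold was 123 and 120.4 in the control lists and 12.8 and 75.4 in the morphant lists. At chr15:44268630-44269052, with 6 sites, it was 159 and 87.9 in the controls and 6.73 and 72.7 in the morphants. The others were chr19:45356007-45356380, chr15:1617436-1617785 and chr5:74834543-74834905, with control folds between 53.2 and 78.5. Over the 5, the fold was 5.82 to 15.6 in the first morphant list and 48.2 to 86.3 in the second, against highest folds of any doubly marked peak of 25.3 and 86.7 in these lists. The 5 were picked by their control folds, and nothing is read from the difference between lists. All 5 had their sites on the minus strand.

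Among the 42 peaks in neither morphant list, chr14:7763801-7764072 had the highest control fold, 14.7 and 10.9, with 1 shared site and a Ythdf2 region over 73.8% of its 271 bp. The next was chr11:24393172-24393424, with folds of 15.3 and 9.32 and 1 site. After these came chr9:6049811-6050088 with 2 sites, chr15:39771726-39771926 and chr17:15339330-15339603 with 1 site each. The control folds of these 5, which they were picked for, lay between 6.32 and 15.3. Their lengths lay between 200 and 277 bp, in the 2 shortest quartiles of the shared control peaks.

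**Figure D5:**
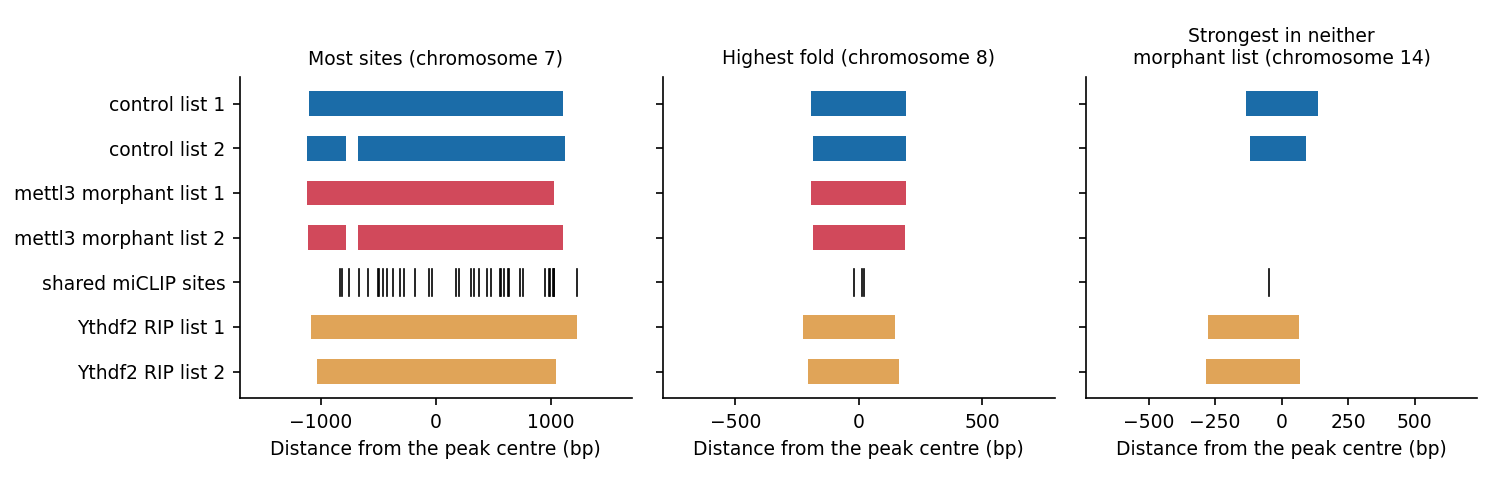
Extent of peaks and regions in each list around 3 peaks (x axis, distance from the centre of the peak in control list 1, bp), with shared miCLIP sites as ticks: the peak with most sites, the one with the highest control fold, and the one of highest control fold absent from both mettl3 morphant lists. The first 2 have a peak in all 4 m6A lists, and the third has none in the morphant lists while both Ythdf2 lists hold a region there.

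At the low end of the fold, chr10:30724851-30725111 had 1.16 and 2.22 in the controls and 2.28 and 1.64 in the morphants. It was followed by chr2:59488323-59488523 at 1.20, chr14:33704022-33704282 at 1.21, chr18:25882824-25883029 at 1.26 and chr2:9939430-9939770 at 1.35 in the first control list. Of these 5, 2 were in both morphant lists and 3 in 1 of them. All 5 lay wholly inside a Ythdf2 region.

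Of the 14 chains of 3 peaks, the one with most sites ran over 1339 bp at chr14:33704022-33705361 and held 3 peaks with 1, 7 and 10 sites on the plus strand. Its first peak is the third of the low-fold peaks. In the second control list the 3 peaks met the same fold of 4.18, and in the first morphant list the same fold of 2.77. The first of the 3 was missing from the second morphant list, where the other two gave 4.89. Chains at chr22:36070636-36073049, with 17 sites over 2413 bp, and chr16:31278634-31281509, with 16 sites over 2875 bp, had all 3 peaks in both morphant lists.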

How the data were processed

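Per the labels, m6A IPs and inputs of control and mettl3 morphant trunks, miCLIP of control trunks and RIP of ythdf2-Flag injected embryos were each made in 2 samples. The deposited m6A lists give a start, an end and the authors' fold enrichment per peak, 1 list per replicate. The submitters' processing notes name MACS2 for these and for the Ythdf2 region lists, which hold positions alone. Of miCLIP, single positions with strand were deposited, and the submitters' processing notes name BWA 0.7.10. The deposited raw counts per gene (TopHat2 2.0.9 and HTSeq, per the submitters' processing notes) served for depth and for mettl3 alone. The sources used here do not give peak thresholds, the control of the RIP calls or the caller of miCLIP sites, and whether positions start at 0 or 1 is unstated. Intervals were read as half-open, since the shortest peak in each list then spans 200 bp. The first morphant list ended in 4842 lines with no fold that equalled the last lines of the first control list, and these were left out.

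Overlaps of at least 1 bp were computed in Python 3.11.15 (pandas 2.3.3, NumPy 2.4.6, SciPy 1.17.1), checked on simulated lists. Where several peaks of another list overlapped, the highest fold was taken. Shares carry exact (Clopper-Pearson) 95% intervals and medians order-statistic intervals. No p-value was computed, since peaks of a list are not replicates and no comparison of the 2 lists per label was tested. All columns used were mapped to a sample. Named peaks were the 5 with most shared sites, the 5 of highest geometric mean control fold, the 5 of highest such fold in neither morphant list, the 5 of lowest fold in the first control list, and the 3 chains with most peaks, ties taken by number of sites. The peaks, classes and lists were chosen with earlier results of these data known. Endothelial libraries were not used here.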

Additional observations from a re-analysis of the deposited data

How the results depend on the processing

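The order of the classes held under all 16 other settings tried. The share in both morphant lists, or in the remaining one where 1 was left out, was largest for the doubly marked peaks. They were ahead of the next class by 5.33 to 22.8 percentage points. The smallest lead was without the second morphant list and counts presence in the first alone, at 94.5% against 89.2% with a site alone. The size of the values depended on the lists. With the better-ranked 50% of each m6A list, 1363 peaks met the rule, 65.4% were in both morphant lists and 5.87% in neither, 58.0% had at least 2 sites, 2.35% lay within 1000 bp of another, and the median fold and length were 7.45 and 514 bp. With the other m6A lists cut to the length of the second morphant list these values were 1425, 79.8%, 0.842%, 56.4%, 1.68%, 7.52 and 509 bp. If the Ythdf2 region had to hold the site, 55.5% had at least 2 sites, and with the second control list as the base the median length was 446 bp. Distances of 500 and 5000 bp gave 8.28% and 23.4% with a neighbour. Overlap of the central 200 bp of each control peak, an alternative chosen after seeing the data, gave 85.4% in both lists.

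Leaving out 1 library at a time gave 3578 to 5493 peaks, the most without the second miCLIP list and 5331 without the first. The share in both morphant lists, or in the remaining one, went from 80.6% to 94.5%, and the share in neither from 1.14% to 8.58%. At least 2 sites were held by 51.1% to 64.9%, and 11.3% to 14.1% lay within 1000 bp of another. The median fold went from 4.89 to 5.11 and the median length from 431 to 473.5 bp. Without the first or second control list the share in neither was 2.32% or 3.59%, without the first or second miCLIP list 1.91% or 1.95%, without the first or second morphant list 8.58% or 5.49%. The causes were not tested. Sites matched within 1 nt gave the same peaks. No paired analysis was possible because no result comes from a test that could take replicate number as a block. Within a number, the uncut lists gave 92.2% of the first control list's peaks with both marks in the first morphant list, and 90.5% of the second's in the second. In the cut lists these shares were 79.6% and 96.3%. There the second morphant list kept its full length while the first was cut, so these 2 shares are not alike.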
